A study of Mus musculus with 19 samples.

Results

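Mice that carry ovaries but differ in their sex chromosomes, XX in one group and XY in the other, were compared in the RNA of their spleen cells, gene by gene across the autosomes. XXF stands for mice with ovaries and XX chromosomes (5 mice, F1 to F5) and XYF for mice with ovaries and XY chromosomes (4 mice, F6 to F9). The members are the autosomal genes with an RPKM (reads scaled by gene length and library size) of at least 0.5 in at least 4 of these 9 mice. They number 12764 of the 23971 autosomal genes and of the 27179 genes listed in all. Of these, 197 would be lost if 1 mouse more had to reach that RPKM, and 208 gained if 1 mouse fewer had to. Autosomes, unlike the sex chromosomes, are present in the same number in XX and XY mice. The copies of single genes were not measured.

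The spleen filters blood and answers what it finds there, and its white pulp holds B and T lymphocytes while its red pulp holds macrophages, monocytes, plasma cells and natural killer (NK) cells. NK cells read target cells through killer lectin-like receptors, most of them encoded side by side in a single gene complex, and kill with granzymes and perforin. B cells of the marginal zone answer bacteria in the blood early, and plasma cells secrete the antibody, whose class is set by the heavy chain constant gene in use.

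The study immunized FCG mice with heat-killed Streptococcus pneumoniae and took their spleen cells 1 week later to read gene expression by RNA sequencing. In these mice, which separate gonads from sex chromosomes and come from transgenic males on the B6 background bred to C57BL/6J females, the testis-determining gene Sry is deleted from the Y chromosome and carried as a transgene on chromosome 3. XXF mice have the genotype XX and XYF mice XY with that Y chromosome, neither with the transgene, and both groups were given the same intraperitoneal dose. The testis-bearing groups XXM and XYM (5 mice each) carry the transgene. They are used here in the fit, where they help to set the spread of each gene, and to compare the XX against XY difference between mice with ovaries and mice with testes. Age is not in the labels. XYF mice differ from XXF mice in having 1 X chromosome and in having a Y chromosome, so the comparison cannot tell these apart. The labels give no batch, and the libraries of a group stand together in the running numbers of the titles, so that group and any processing in that order cannot be told apart. The labels name a NEBNext Ultra kit for the libraries and the methods a KAPA stranded kit. How reads that match several genes were counted, and with which strand setting, is not stated in the sources at hand, so that genes with near-identical copies (the Klra receptors, the immunoglobulin segments, the alpha globins) and antisense pairs are uncertain in their split.

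The libraries held between 14595047 and 17644843 reads in XXF mice and between 11263738 (F6) and 19040713 in XYF mice. Within a group the log2 values of 2 mice correlated with r between 0.938 and 0.990, and the chi-square per gene between mice of a group was at least 22.1, where counting alone would give 1. The label of spleen cells fits the markers: Cd79b, a part of the B cell receptor, had between 320 and 909 RPKM in the 9 mice. Of 12 stromal and endothelial genes only 2 passed the filter, and Lum, Ccl19 and Ccl21a had no read in any of the 9 mice. Of 10 genes of pancreatic acinar cells 1 passed. The summed RPKM of 13 neutrophil genes was 4916, 4041, 5605, 5327 and 4673 in XXF mice and 13710, 17333, 8398 and 60252 in XYF mice. XYF F9 stands apart from the other 8 mice in that sum, and its NK, B and T cell sums are the lowest of the 9. Results are therefore given with and without it. Fewer cells of a type and less RNA per cell cannot be told apart in RNA from whole spleen cells.

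Differences are XXF minus XYF on the deposited log2(RPKM + 1) scale, which understates the change of weakly expressed genes. A gene is called when limma, fitted to all 19 mice, gives a Benjamini-Hochberg adjusted p under 0.1 (over the 13644 genes of any chromosome that pass the filter) and a log2 difference that amounts to a fold change over 1.5. By this rule 85 autosomal genes (0.666%) were called higher and 88 (0.689%) lower in XXF mice, 173 (1.36%) in all. The median difference over all 12764 genes was 0.07, and 61.0% of them lay above 0. At an unadjusted p under 0.05 there were 1558 genes higher and 897 lower. These shares stand for comparison beside every count of list members called in the text below. Of the called genes 26 higher and 40 lower ones differed by over 1 on the log2 scale. The XXF and XYF mice did not overlap at all for 71 of the 85 and 70 of the 88, where 3.7% of all autosomal genes were higher and 2.05% lower with no overlap. Called genes higher in XXF mice made up 49.1% of the 173. With the libraries rescaled by median ratios the counts were 58 higher and 103 lower, so that 36.0% were higher, and the median over all genes was then 0.00.

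**Figure D1:**
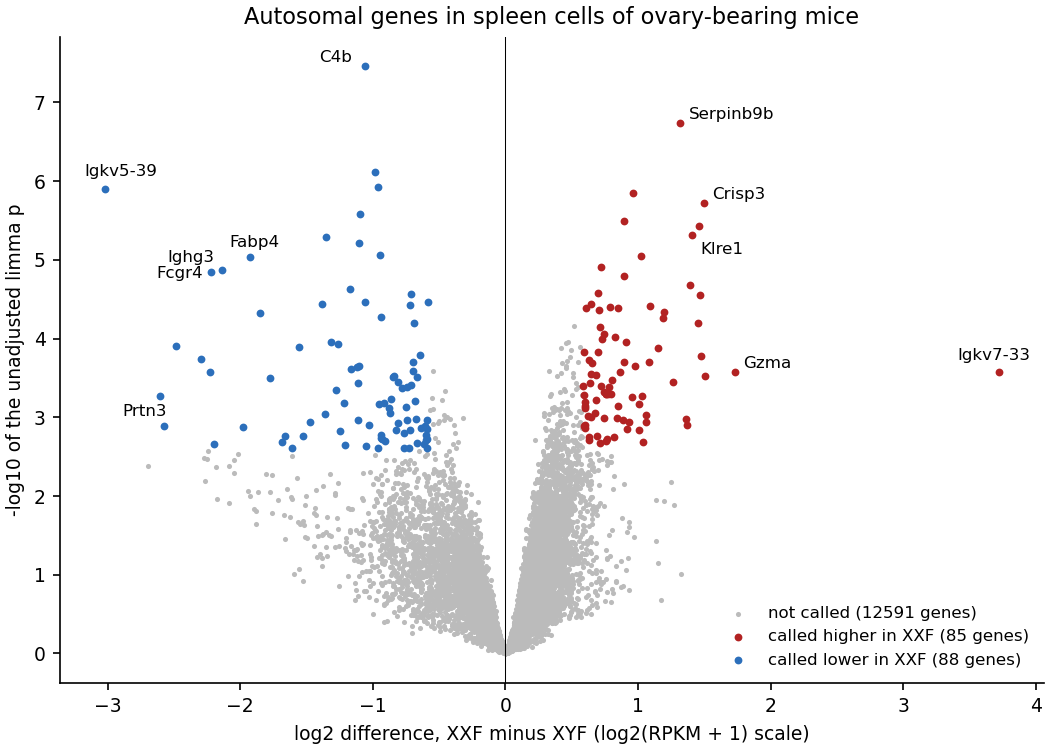
Each point is an autosomal gene tested in ovary-bearing mice, with its log2 difference (XXF minus XYF) and the unadjusted p from limma. Genes called in either direction are in color and some of the named genes are labelled.

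These counts rest on few mice and on the spread shared with the mice with testes. With the 9 ovary-bearing mice alone in the fit, 31 genes were called higher and 49 lower. Without XYF F9 there were 21 genes higher and 22 lower, and 42 of the 173 calls (24.3%) were among them. The counts of higher genes were 47 without XXF F4, 36 without XXF F5, 38 without XYF F6, 265 without XYF F7 and 197 without XYF F8. Those of lower genes were 52 without XXF F1, 40 without XXF F4, 35 without XXF F5, 44 without XYF F6, 531 without XYF F7 and 153 without XYF F8. In the volcano plot the left arm is the wider, and many grey genes with a large difference lie in it below the threshold. Called with each of the 9 mice left out in turn were 19 of the 85 higher and 19 of the 88 lower genes. The 19 higher ones were Ackr3, Adh1, Cma1, Cr2, Crisp3, Fasl, Gm6637, Gpx8, Klra14-ps, Klra5, Klrb1c, Klre1, Klrg1, Klri2, Ncr1, Rap1gap, S1pr3, Serpinb9b and Slc25a20. The 19 lower ones were 5430437J10Rik, C4b, Clec4a1, Cp, F11r, Fabp4, Fcgr4, Ighg2b, Ighg3, Igkv3-2, Igkv5-39, Mmp14, Ms4a6d, Nr4a1, Nxpe5, Oas1g, Pltp, Pparg and Slamf9. Of these, the genes that no part of the naming rule gives were chosen after their values were seen.

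Among the gene lists, that of NK cells had the highest median. Klre1, a receptor of NK cells, had 36.7, 47.9, 42.6, 47.0 and 49.7 RPKM in XXF F1 to F5 and 15, 25.5, 18 and 9.84 RPKM in XYF F6 to F9. Every XXF mouse lay above every XYF mouse, and F9 was the lowest of the 9. Klre1 differed by 1.41 (SE 0.22; adjusted p = 0.00335, limma, Benjamini-Hochberg), and it was 1.18 and still called without F9. Ncr1, the activating receptor NKp46 that marks NK cells, had 31.3, 21.5, 20.8, 33.1 and 24.5 RPKM in XXF mice and 7.4, 12.2, 9.89 and 6.5 RPKM in XYF mice. The lowest XXF mouse was well above the highest XYF mouse, F7. Ncr1 differed by 1.46 (SE 0.28; adjusted p = 0.0172, limma, Benjamini-Hochberg), and 1.33 without F9, where it was still called. Klrb1c, the NK1.1 antigen of this strain, had 24.7, 24.4, 25.3, 28.2 and 28.9 RPKM in XXF mice and 7.83, 13.7, 11 and 5.11 RPKM in XYF mice. The XXF mice lay close together and the XYF mice were spread below them without overlap. Klrb1c differed by 1.46 (SE 0.26; adjusted p = 0.011, limma, Benjamini-Hochberg), and 1.23 without F9, where the call held.

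Gzma, a granzyme that NK cells store in their granules, was the most abundant member of the NK cell list, with 265, 316, 311, 392 and 356 RPKM in XXF mice and 100, 173, 104 and 49.3 RPKM in XYF mice. All XXF mice were above all XYF mice, and F9 was again lowest. Gzma differed by 1.73 (SE 0.38; adjusted p = 0.0376, limma, Benjamini-Hochberg), but the call ended without XXF F5 (1.70) or XYF F9 (1.41). Klrk1, which encodes the activating receptor NKG2D, had 21.3, 19.7, 18.5, 26.9 and 26.1 RPKM in XXF mice and 8.76, 12.3, 11.6 and 6.33 RPKM in XYF mice. Its groups did not overlap either. Klrk1 differed by 1.15 (SE 0.24; adjusted p = 0.0272, limma, Benjamini-Hochberg), and the call ended without XYF F9 (0.98). Over the 11 members of the NK cell list the median log2 difference was 1.15, against 0.07 over all autosomal genes. Called higher were 8 of the 11 (0.666% of all autosomal genes) and called lower 0 (0.689% of all), where 10 members were higher and 0 lower at an unadjusted p under 0.05 by limma and limma-voom called 8 and 0. The number called higher was 5 without XXF F4, 4 without XXF F5, 5 without XYF F6 and 3 without XYF F9, and the median without F9 was 0.98. In the sum of the list, mice of the XXF group had 657, 718, 681, 802 and 786 RPKM and XYF mice 310, 452, 350 and 199. Every XXF mouse lay above every XYF mouse in the sum. The neutrophil sum ran the other way across the groups, and its part in these differences was not tested.

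**Figure D2:**
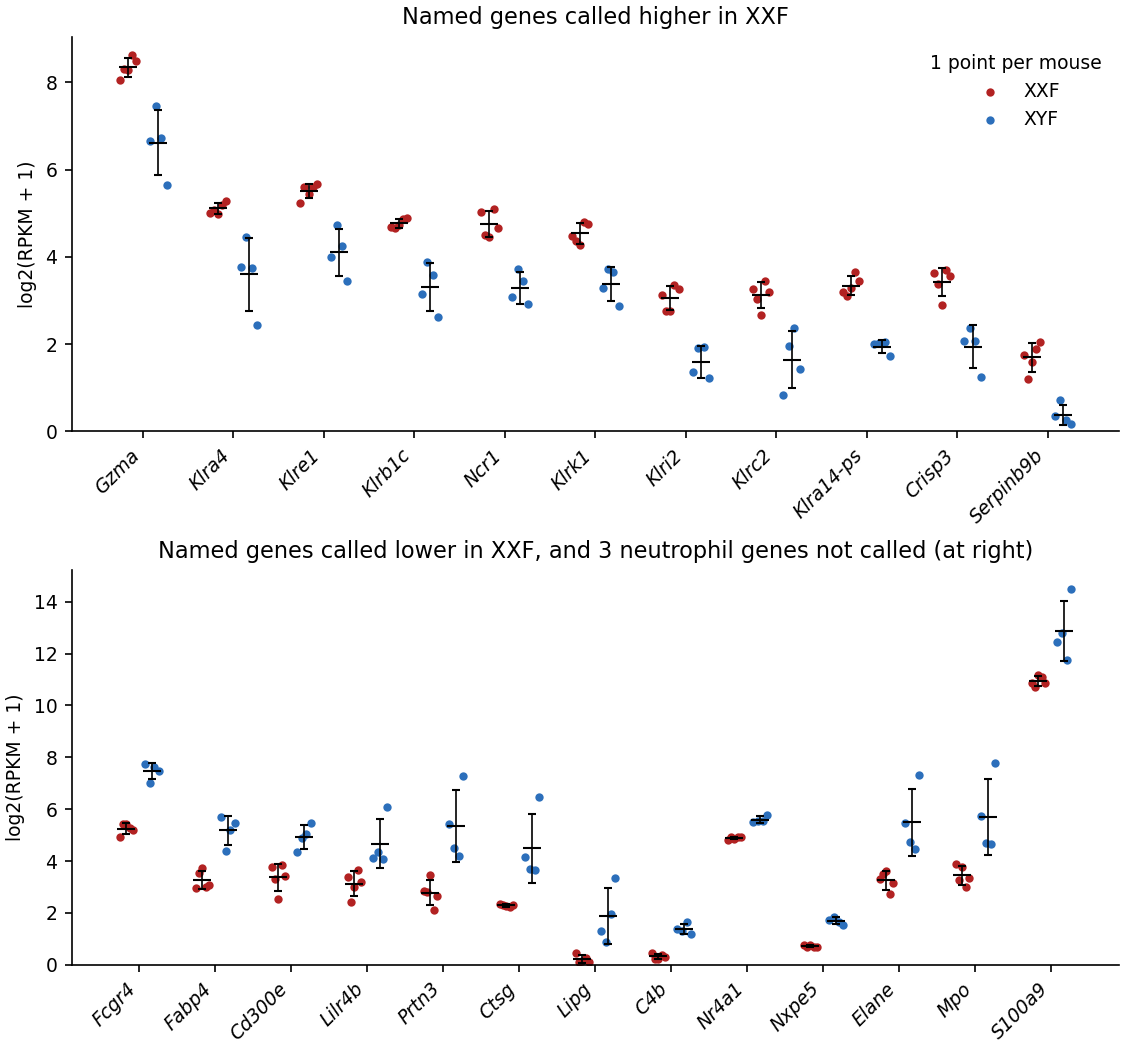
Values of named genes in each mouse, with the mean and SD of each group. Upper panel, genes called higher in XXF mice; lower panel, genes called lower, with 3 neutrophil genes that were not called at the right.

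The killer lectin-like receptors as a family were next looked at by place. Of 27 members tested, 15 were called higher and 1 lower in XXF mice (0.666% and 0.689% of all autosomal genes), with a median log2 difference of 0.86 (0.75 without F9), and 25 of the 27 lay above 0. The number called higher was 9 without XXF F5 and 6 without XYF F9. All but Klrg1 lie between 128609227 and 131247716 on chromosome 6 (RefSeq, GRCm38.p6), where 26 members were tested, 14 were called higher and 1 lower, and the median was 0.79. The 14 other genes tested in this span had a median of 0.08, and the called genes of the span are all receptor genes. On the rest of chromosome 6, 9 of 749 genes were called higher and 13 lower, with a median of 0.03. The difference in median between the receptor genes and the other genes of the span was not tested. Klri2, which pairs with Klre1 at the cell surface, had 7.76, 5.81, 5.74, 9.3 and 8.68 RPKM in XXF mice and 1.54, 2.74, 2.8 and 1.33 RPKM in XYF mice. The XYF mice formed a narrow low group. Klri2 differed by 1.46 (SE 0.22; adjusted p = 0.00266, limma, Benjamini-Hochberg), and 1.33 and called without F9. Klrc2, the activating NKG2C chain, had 8.57, 7.2, 5.34, 9.85 and 8.19 RPKM in XXF mice and 0.795, 2.9, 4.13 and 1.68 RPKM in XYF mice. F8 came closest to the XXF mice without reaching them. Klrc2 differed by 1.47 (SE 0.31; adjusted p = 0.0312, limma, Benjamini-Hochberg), and the call ended without XYF F6 (1.21) or XYF F9 (1.40).

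Klra4, a receptor of the Ly49 group, had 31.1, 32.8, 30.7, 35.2 and 38.2 RPKM in XXF mice and 12.6, 20.9, 12.4 and 4.44 RPKM in XYF mice. Among the XYF mice F9 was far below and F7 above the rest, and the XXF mice were all higher. Klra4 differed by 1.51 (SE 0.34; adjusted p = 0.0392, limma, Benjamini-Hochberg), and the call ended without XXF F5 (1.46) or XYF F9 (1.12), and also in the 9 mice alone. The pseudogene Klra14-ps had 8.21, 7.59, 8.71, 11.6 and 9.89 RPKM in XXF mice and 2.99, 3.05, 3.12 and 2.29 RPKM in XYF mice. Its XYF values are nearly equal. Klra14-ps differed by 1.39 (SE 0.25; adjusted p = 0.0096, limma, Benjamini-Hochberg), called also without F9 (1.32). Klrd1, whose product CD94 pairs with the NKG2 chains and which is the most abundant of the family, was not called at 0.69, which was 0.36 without XYF F9 and 0.88, and then called, without XYF F7. Klra17, the only family member called lower, was chosen after its values were seen and had 2.29, 2.92, 3.03, 3.71 and 2.31 RPKM in XXF mice and 8.3, 3.71, 10.8 and 11.1 in XYF mice. XYF F7 met the highest XXF mouse while the other XYF mice were far above. Klra17 differed by -1.22 (SE 0.30; adjusted p = 0.0589, limma, Benjamini-Hochberg), and the call ended without XXF F1 (-1.17), XXF F2 (-1.23), XXF F5 (-1.17), XYF F6 (-1.20) or XYF F9 (-1.07), and also in the 9 mice alone. Reads shared between the near-identical Ly49 genes may be split in ways that the values do not show.

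Promoters are shown for those named members of the NK cell list that hold letters bound by RUNX factors. NK cell genes share regulators of the RUNX and T-box families, whose part in these differences was not tested. The letters TGTGGTT, a core that RUNX factors bind, were searched on both strands of the 300 bases around each start site (RefSeq, GRCm38.p6) and occur in 5.37% of 27025 promoters. They occur in 5 of the 10 NK cell list promoters that were found (50.0%), in 8 of 65 promoters of genes called higher (12.3%) and in 3 of 59 of genes called lower (5.08%). Of the tested autosomal genes 9590 had a promoter in the table and 3.97% of these hold the letters. The T-box letters GGTGTGA occur in 3.96% of all promoters, in 1 of the 10 NK cell list promoters and in 3 of the 65. The letters TTGCNNAA, bound by C/EBP factors, occur in 10.8% of all promoters, in 2 of the 10 and in 8 of the 65. The 4 named members that hold the RUNX letters are printed with all motif letters in capitals, which in Klrk1 include a match to TTGCNNAA or its reverse. Gzma lies on the minus strand (chr13:113100932-113101231), Klre1 on the plus strand (chr6:129577963-129578262), Klrk1 on the minus strand (chr6:129623815-129624114) and Ncr1 on the plus strand (chr7:4337465-4337764).
Gzma: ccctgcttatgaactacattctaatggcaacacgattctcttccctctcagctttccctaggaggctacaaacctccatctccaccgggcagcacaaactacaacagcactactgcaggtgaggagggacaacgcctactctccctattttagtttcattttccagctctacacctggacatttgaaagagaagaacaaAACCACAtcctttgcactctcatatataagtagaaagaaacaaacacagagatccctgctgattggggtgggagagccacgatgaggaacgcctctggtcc
Klre1: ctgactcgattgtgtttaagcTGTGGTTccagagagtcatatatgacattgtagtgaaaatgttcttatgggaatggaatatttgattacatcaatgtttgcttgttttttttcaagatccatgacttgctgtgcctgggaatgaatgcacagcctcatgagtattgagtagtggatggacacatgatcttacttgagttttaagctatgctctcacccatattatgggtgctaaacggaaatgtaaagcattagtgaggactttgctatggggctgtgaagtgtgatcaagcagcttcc
Klrk1: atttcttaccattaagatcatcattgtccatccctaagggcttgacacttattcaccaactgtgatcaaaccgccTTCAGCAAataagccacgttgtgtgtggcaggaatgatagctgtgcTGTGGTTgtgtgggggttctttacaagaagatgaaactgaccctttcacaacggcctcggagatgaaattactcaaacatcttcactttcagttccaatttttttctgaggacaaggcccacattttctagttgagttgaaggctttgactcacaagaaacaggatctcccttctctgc
Ncr1: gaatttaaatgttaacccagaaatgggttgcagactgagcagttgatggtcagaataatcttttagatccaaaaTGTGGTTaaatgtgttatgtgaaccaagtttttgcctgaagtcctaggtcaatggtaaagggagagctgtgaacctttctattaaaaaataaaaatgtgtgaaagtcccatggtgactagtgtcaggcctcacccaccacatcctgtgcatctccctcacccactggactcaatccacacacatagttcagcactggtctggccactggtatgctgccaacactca
In Gzma the letters stand in the reverse orientation, AACCACA, and in the other 3 as TGTGGTT. A match says only that these letters are in the window.

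Crisp3, which encodes a cysteine-rich secretory protein, had 11.4, 9.43, 6.47, 11.9 and 10.8 RPKM in XXF mice and 3.2, 4.19, 3.21 and 1.36 RPKM in XYF mice. Its groups did not overlap, with XXF F3 nearest to the XYF mice. Crisp3 differed by 1.49 (SE 0.22; adjusted p = 0.00172, limma, Benjamini-Hochberg), and 1.26 and called without F9. Serpinb9b, a serine protease inhibitor of the family whose member Serpinb9 blocks granzyme B, had 2.39, 1.27, 2.02, 2.68 and 3.14 RPKM in XXF mice and 0.276, 0.633, 0.202 and 0.136 RPKM in XYF mice. It was barely read in XYF mice. Serpinb9b differed by 1.32 (SE 0.16; adjusted p = 0.000279, limma, Benjamini-Hochberg), and 1.25 and called without F9. Among the predicted genes Gm6637 had 16, 15.9, 13.8, 18.4 and 11.5 RPKM in XXF mice and 3.66, 8.51, 8.46 and 4.7 RPKM in XYF mice. All XXF mice were higher than the XYF mice. Gm6637 differed by 1.19 (SE 0.23; adjusted p = 0.0151, limma, Benjamini-Hochberg), and 1.09 and called without F9.

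The lists of marginal zone B cell, B cell and T cell genes had smaller medians than the NK cell list, a difference that was not tested. Of 7 marginal zone B cell genes 3 were called higher, S1pr3, Dtx1 and Cd1d1, with a median log2 difference of 0.60 (0.47 without F9), and without F9 the count was 1. Of the 7 members 5 lay above 0 and 2 below. Their summed RPKM was 865, 776, 709, 796 and 775 in XXF mice and 661, 852, 617 and 736 in XYF mice, so the groups overlap in the sum. S1pr3, a sphingosine-1-phosphate receptor that helps to hold B cells in the marginal zone, had 8.18, 5.2, 4.75, 5.91 and 5.59 RPKM in XXF mice and 1.92, 3.14, 2.45 and 2.11 RPKM in XYF mice. The groups were apart, with F1 highest. S1pr3 differed by 1.02 (SE 0.17; adjusted p = 0.00506, limma, Benjamini-Hochberg), and 0.98 and called without F9. Dtx1, a ubiquitin ligase of the Notch pathway on which marginal zone B cells depend, had 67.3, 60.3, 62.2, 55.3 and 63.6 RPKM in XXF mice and 33.5, 44.4, 37.7 and 31.2 RPKM in XYF mice. Here too the groups were apart. Dtx1 differed by 0.74 (SE 0.15; adjusted p = 0.0218, limma, Benjamini-Hochberg), and the call ended without XYF F9 (0.67). Cd1d1, which presents lipids and is high on these cells, had 26.3, 35.5, 34.5, 31.6 and 31.3 RPKM in XXF mice and 20.2, 26.3, 21.7 and 15.3 RPKM in XYF mice. XXF F1 and XYF F7 were level. Cd1d1 differed by 0.60 (SE 0.15; adjusted p = 0.0572, limma, Benjamini-Hochberg), and the call ended without XXF F2 (0.56), XXF F3 (0.57), XXF F4 (0.60), XXF F5 (0.61), XYF F6 (0.59) or XYF F9 (0.47), and also in the 9 mice alone, with median ratio rescaling (0.53), with quantile normalization (0.56), without immunoglobulin genes in the library sizes (0.58) and with array weights (0.53). Plac8, the most abundant gene of that list, was not called (0.11, and from 0.05 without XYF F8 to 0.21 without XYF F7).

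All 12 B cell genes had differences above 0, with a median of 0.46 (0.30 without F9), and 2 were called, Cr2 and Blk. That count was 1 without XXF F1, XXF F4, XXF F5, XYF F6 or XYF F9 and 6 without XYF F7 or XYF F8. Cr2, the complement receptor CD21 that is highest on marginal zone B cells, had 146, 114, 110, 128 and 111 RPKM in XXF mice and 64.2, 76.9, 92.1 and 51.4 RPKM in XYF mice. The groups did not overlap. Cr2 differed by 0.79 (SE 0.15; adjusted p = 0.0128, limma, Benjamini-Hochberg), and 0.65 and called without F9, but not in the 9 mice alone. Blk, a kinase of B cell receptor signalling, had 130, 110, 97.9, 112 and 106 RPKM in XXF mice and 55.3, 86.6, 86.0 and 43.3 RPKM in XYF mice. F7 and F8 came near the XXF mice and F6 and F9 were far below. Blk differed by 0.76 (SE 0.18; adjusted p = 0.0515, limma, Benjamini-Hochberg), and the call ended without XXF F1 (0.70), XXF F4 (0.75), XXF F5 (0.77), XYF F6 (0.68) or XYF F9 (0.56), and also in the 9 mice alone. The summed B cell genes had 3502, 3286, 2873, 3289 and 3207 RPKM in XXF mice and 1826, 2958, 3080 and 1566 in XYF mice, so that F7 and F8 lay among the XXF mice.

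Among 19 T cell genes 1 was called, Lef1, a transcription factor of naive T cells, and 18 lay above 0, with a median of 0.45 (0.20 without F9). Lef1 had 45.7, 43.5, 41.9, 42.0 and 53.0 RPKM in XXF mice and 27.1, 33.6, 29.5 and 17.1 RPKM in XYF mice. There was no overlap. Lef1 differed by 0.77 (SE 0.21; adjusted p = 0.0899, limma, Benjamini-Hochberg), and the call ended without XXF F1 (0.76), XXF F2 (0.78), XXF F3 (0.79), XXF F4 (0.79), XXF F5 (0.71), XYF F6 (0.79) or XYF F9 (0.57), and also in the 9 mice alone, with a pseudocount of 0.1 (0.79), without a filter, with median ratio rescaling (0.69) and without immunoglobulin genes in the library sizes (0.74). The number of T cell genes called was 0 without XXF F1, XXF F2, XXF F4, XXF F5, XYF F6 or XYF F9, 4 without XYF F7 and 3 without XYF F8. Of 172 T cell receptor segments 1 was called higher (0.581%, against 0.666% of all autosomal genes), Trdv4, which gamma delta T cells use, with a median over the segments of 0.36 (0.21 without F9). Trdv4 had 6.07, 3.0, 1.59, 4.17 and 4.27 RPKM in XXF mice and 0.0, 1.85, 1.13 and 0.609 RPKM in XYF mice. F6 had no read and F7 lay above XXF F3. Trdv4 differed by 1.37 (SE 0.36; adjusted p = 0.0748, limma, Benjamini-Hochberg), from at most 35 reads in a mouse, and the call ended without XXF F1 (1.21), XXF F2 (1.42), XXF F4 (1.33), XXF F5 (1.32), XYF F6 (1.10) or XYF F9 (1.32), and also in the 9 mice alone, without a filter and by limma-voom (2.32). The number of segments called was 0 without XXF F1, XXF F4, XXF F5, XYF F6 or XYF F9, 5 without XXF F3, 11 without XYF F7 and 5 without XYF F8.

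Of the 88 lower genes 15 are immunoglobulin genes (17%) and of the 85 higher ones 1 (1.18%), against 238 of all 12764 genes (1.86%). The lower count was 7 without XXF F4, 7 without XXF F5, 33 without XYF F7 and 6 without XYF F9, and the higher count 5 without XYF F8 and 0 without XYF F9. The share of all reads on 260 immunoglobulin genes was 1.98, 2.81, 2.54, 1.47 and 2.01% in XXF mice and 3.44, 3.24, 4.44 and 3.85% in XYF mice. Every XYF mouse lay above every XXF mouse. The difference of the means was -1.58 percentage points (p = 0.00794 in an exact permutation, as small as 5 and 4 mice allow, and 0.0397 when adjusted by Benjamini-Hochberg over the 5 shares looked at). With a mouse left out the groups still did not overlap and the difference was between -1.75 and -1.35. The smallest exact permutation p is then 0.0286 with 4 and 4 mice and 0.0179 with 5 and 3. The p was at these limits each time, save 0.0357 without XYF F8. Adjusted, it was between 0.0893 and 0.179. With the other 4 shares as they were, no test with a mouse left out could reach 0.05. So these adjusted p-values cannot show whether the result rests on a single mouse. The other 4 shares had an adjusted p of 0.508 in the 9 mice: cytosolic ribosomal protein genes differed by 0.444 points (exact permutation p = 0.325), hemoglobin genes by -0.602 (p = 0.294), mitochondrially encoded genes by 0.280 (p = 0.508) and 18S ribosomal RNA by -0.0238 (p = 0.5). Hemoglobin had 3.39% of the reads in F6 and 2.47% in F9, above the 0.945 to 2.17% of the other 7 mice. Without the immunoglobulin genes in the library sizes, 69 genes were called higher and 82 lower.

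The heavy chain constant genes give the class of the antibody. Ighg3, for IgG3, the IgG class typical of responses to bacterial polysaccharides, had 169, 131, 421, 125 and 217 RPKM in XXF mice and 898, 449, 1674 and 750 RPKM in XYF mice. XXF F3 and XYF F7 are the nearest and still apart. Ighg3 differed by -2.14 (SE 0.36; adjusted p = 0.00686, limma, Benjamini-Hochberg), and -2.20 and called without F9. Ighg2b had 470, 535, 396, 139 and 317 RPKM in XXF mice and 1024, 868, 1650 and 1531 RPKM in XYF mice. There is a gap between the groups, and XXF F4 is lowest. Ighg2b differed by -1.85 (SE 0.35; adjusted p = 0.0136, limma, Benjamini-Hochberg), and -1.75 and called without F9. Ighg2c had 225, 661, 376, 221 and 301 RPKM in XXF mice and 993, 795, 1584 and 1254 RPKM in XYF mice. XXF F2 stood high in its group but under every XYF mouse. Ighg2c differed by -1.77 (SE 0.40; adjusted p = 0.0403, limma, Benjamini-Hochberg), and the call ended without XXF F4 (-1.63), XXF F5 (-1.74) or XYF F9 (-1.72). Ighg1 had 100, 74.8, 55.4, 20.6 and 58.6 RPKM in XXF mice and 99.8, 162, 155 and 109 RPKM in XYF mice. XXF F1 and XYF F6 were level. Ighg1 differed by -1.21 (SE 0.34; adjusted p = 0.0943, limma, Benjamini-Hochberg), and the call ended without XXF F2 (-1.32), XXF F3 (-1.21), XXF F4 (-0.86), XXF F5 (-1.23), XYF F6 (-1.33), XYF F8 (-1.12) or XYF F9 (-1.28), and also in the 9 mice alone, with a pseudocount of 0.1 (-1.22), without a filter, with quantile normalization (-1.15) and without immunoglobulin genes in the library sizes (-1.23).

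Ighm, for IgM, the most abundant of them, had 5384, 7787, 6828, 4092 and 5787 RPKM in XXF mice and 8669, 8529, 10598 and 9590 RPKM in XYF mice. The groups did not overlap, yet the gene was not called. Ighm differed by -0.67 (SE 0.27; adjusted p = 0.201, limma, Benjamini-Hochberg). It was called without a trend in the spread (-0.67, adjusted p = 0.0787) and by limma-voom (-0.67, adjusted p = 0.0851), and with quantile normalization its difference was -0.34 and not called. Igha (-0.74) and Ighd (0.35, and from 0.08 without XYF F6 to 0.61 without XYF F8), chosen after their values were seen, were not called and their groups overlap. So 4 of the 7 heavy constant genes tested were called lower and 0 higher (at an unadjusted p under 0.05, 5 and 0, and by limma-voom 5 and 0), and the median was -1.21 (-1.28 without F9). The count was 2 without XXF F4, XXF F5 or XYF F9. As a share of all heavy constant RPKM, the 4 IgG genes had 12.7, 13.8, 13.2, 9.04 and 12% in XXF mice and 23.4, 19.1, 29.7 and 24.5% in XYF mice. The lowest XYF mouse, F7, was above the highest XXF mouse, so within the heavy constant RNA, too, IgG had more weight in XYF mice.

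**Figure D3:**
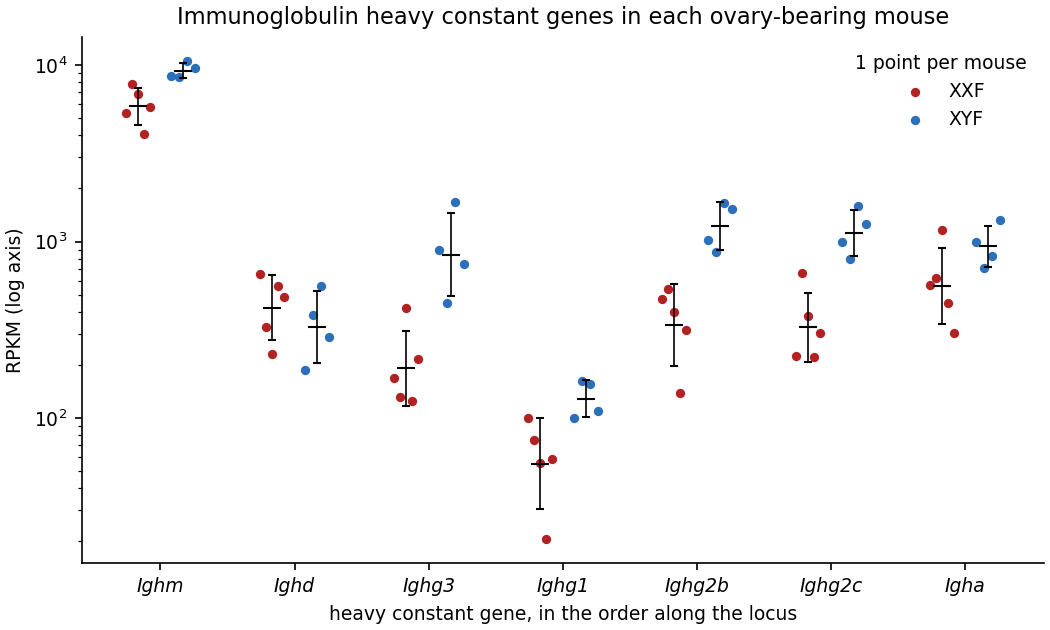
RPKM of the heavy chain constant genes in each ovary-bearing mouse on a log axis, with the mean and SD of log2(RPKM + 1). The groups are apart for Ighm, Ighg3, Ighg2b and Ighg2c and overlap for the other genes shown.

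Variable segments show which receptors carry that RNA. Igkv5-39, a kappa segment, had 1008, 487, 264, 300 and 468 RPKM in XXF mice and 3893, 4185, 3624 and 3014 RPKM in XYF mice. The XYF mice were several times above every XXF mouse. Igkv5-39 differed by -3.02 (SE 0.43; adjusted p = 0.00136, limma, Benjamini-Hochberg), and -3.11 and called without F9. Of all kappa variable RPKM it held 11.9, 4.34, 2.88, 4.75 and 5.76% in XXF mice and 29.0, 30.8, 19.1 and 21.8% in XYF mice. So this segment made up more of the kappa RNA in each XYF mouse than in any XXF mouse. Igkv7-33 had 546, 481, 612, 670 and 193 RPKM in XXF mice and 73.0, 169, 1.52 and 46.0 RPKM in XYF mice. F8 was almost without it, and F7 came near XXF F5. Igkv7-33 differed by 3.72 (SE 0.83; adjusted p = 0.0376, limma, Benjamini-Hochberg), a value that was 2.46 when XYF F8 was left out, and the call ended without XYF F9 (3.87), and also in the 9 mice alone. Its share of kappa variable RPKM was 6.45, 4.28, 6.66, 10.6 and 2.38% in XXF mice and 0.544, 1.24, 0.00805 and 0.334% in XYF mice. Igkv5-39 far exceeded Igkv7-33 in each XYF mouse, while XXF F3 and F4 held more Igkv7-33 and the other 3 XXF mice more Igkv5-39.

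Igkv3-2 had 115, 50.7, 204, 72.4 and 86.4 RPKM in XXF mice and 419, 459, 762 and 548 RPKM in XYF mice. F3 was highest among XXF mice and under each XYF mouse. Igkv3-2 differed by -2.48 (SE 0.51; adjusted p = 0.0267, limma, Benjamini-Hochberg), and -2.47 and called without F9. Ighv1-84, a heavy chain segment, had 8.19, 4.61, 3.51, 9.67 and 4.84 RPKM in XXF mice and 19.2, 17.2, 110 and 71.1 RPKM in XYF mice. F8 and F9 were far above F6 and F7, and all 4 above the XXF mice. Ighv1-84 differed by -2.61 (SE 0.62; adjusted p = 0.0522, limma, Benjamini-Hochberg), and the call ended without XXF F2 (-2.54), XXF F5 (-2.55) or XYF F9 (-2.34). Of 106 heavy variable segments tested 5 were called lower and 0 higher, where 0.689% and 0.666% of all autosomal genes were (at an unadjusted p under 0.05, 36 and 1, and by limma-voom 6 and 0), with a median of -0.84 (-0.76 without F9). That count was 2 without XXF F2, XXF F4 or XXF F5, 3 without XXF F3, 17 without XYF F7 and 1 without XYF F9. Of 101 kappa segments 6 were called lower and 1 higher (0.689% and 0.666% of all), with a median of -0.48 (-0.50 without F9). The lower count was 3 without XXF F1, XXF F4, XXF F5 or XYF F9 and 12 without XYF F7, and the higher count 4 without XYF F8 and 0 without XYF F9. The 9 lambda genes had a median of 0.08 (0.00 with median ratio rescaling, and from -0.12 without XYF F9 to 0.17 without XYF F7), and limma called 0 of them (0 at an unadjusted p under 0.05 and 0 by limma-voom).

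Plasma cells carry most immunoglobulin RNA per cell. By flow cytometry the paper found a higher percentage of CD138+ plasma cells in XXF than in XYF spleens, also after ovariectomy. By ELISPOT it found more IgM-secreting cells specific for the immunizing bacteria in XXF than in XYF mice. That assay counts antigen-specific cells, while the RNA here, Ighm included, is that of all spleen cells whatever they recognize. Of 11 plasma cell genes in the RNA, 2 were called lower in XXF mice and 0 higher (at an unadjusted p under 0.05, 5 and 1, and by limma-voom 2 and 0), with a median of -0.42 (-0.38 without F9). The members were split, 6 below 0 and 5 above it, and those above were Tnfrsf13b (0.57), Irf4 (0.32), Mzb1 (0.20), Slamf7 (0.09) and Prdm1 (0.00), none of them called. Sdc1, which encodes CD138, had 3.23, 3.85, 2.94, 2.28 and 3.67 RPKM in XXF mice and 3.66, 4.26, 5.48 and 5.0 RPKM in XYF mice. The groups overlap. Sdc1 was not called, at -0.42 (SE 0.15; adjusted p = 0.175, limma, Benjamini-Hochberg). Sdc1 and the 5 members above 0 were chosen after their values were seen. The count of members called lower was 1 without XXF F1 and 0 without XXF F4, XXF F5, XYF F6 or XYF F9. Derl3, a factor of the disposal of misfolded secretory proteins, had 9.86, 12.8, 12.1, 6.8 and 7.93 RPKM in XXF mice and 17.8, 13.2, 21.6 and 17.4 RPKM in XYF mice. XYF F7 was only just above XXF F2. Derl3 differed by -0.78 (SE 0.18; adjusted p = 0.047, limma, Benjamini-Hochberg), and the call ended without XXF F4 (-0.67), XXF F5 (-0.72), XYF F6 (-0.76) or XYF F9 (-0.78), and also in the 9 mice alone. Tnfrsf17, the receptor BCMA through which plasma cells receive survival signals, had 2.73, 4.78, 5.15, 1.56 and 3.35 RPKM in XXF mice and 7.98, 7.16, 6.92 and 6.47 RPKM in XYF mice. The XYF mice were close together above the more spread XXF mice. Tnfrsf17 differed by -0.92 (SE 0.22; adjusted p = 0.0589, limma, Benjamini-Hochberg), and the call ended without XXF F1 (-0.86), XXF F4 (-0.73), XXF F5 (-0.92), XYF F6 (-0.87) or XYF F9 (-0.96), and also in the 9 mice alone.

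Jchain, which joins IgM and IgA into polymers and is the most abundant gene of the plasma cell list, had 459, 1120, 1188, 434 and 672 RPKM in XXF mice and 1494, 1163, 1456 and 1056 RPKM in XYF mice. XXF F2 and F3 lay among the XYF mice, and F1, F4 and F5 were low. Jchain was not called, at -0.85 (SE 0.28; adjusted p = 0.149, limma, Benjamini-Hochberg), but was without XXF F3 (-1.04) or XYF F7 (-0.90), and also with array weights (-1.06). Xbp1, the transcription factor of secretory cells, did not overlap between the groups, but its difference of -0.47 (SE 0.12; adjusted p = 0.0685, limma, Benjamini-Hochberg) was too small in size for a call. The 8 germinal center genes all had differences below 0, with a median of -0.45 (-0.23 without XYF F8), and limma called 0 of them (3 lower and 0 higher at an unadjusted p under 0.05, 0 by limma-voom), and 1 lower without XYF F7.

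Some single genes known from myeloid cells were called lower, while no member of the neutrophil and monocyte lists, given further on, was called by limma. Fcgr4, the activating receptor of monocytes and macrophages that binds IgG2 antibodies, had 29.2, 41.9, 42.0, 37.7 and 35.9 RPKM in XXF mice and 214, 129, 196 and 179 RPKM in XYF mice. Each XYF mouse had more than 3 times the level of any XXF mouse. Fcgr4 differed by -2.22 (SE 0.38; adjusted p = 0.00691, limma, Benjamini-Hochberg), and it was the same, -2.22, and called without F9. Its promoter, on the plus strand (chr1:171018676-171018975, RefSeq, GRCm38.p6), is shown because it holds in capitals the letters ACTTCCTC, the reverse of GAGGAAGT, which the myeloid factor PU.1 binds.
Fcgr4: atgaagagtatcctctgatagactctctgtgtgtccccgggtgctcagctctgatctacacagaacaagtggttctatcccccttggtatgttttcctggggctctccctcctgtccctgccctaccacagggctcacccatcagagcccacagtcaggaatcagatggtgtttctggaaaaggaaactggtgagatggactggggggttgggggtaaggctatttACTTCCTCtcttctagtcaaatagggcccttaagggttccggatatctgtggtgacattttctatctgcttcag
These letters, searched on both strands, occur in 3.28% of 27025 promoters, in 4 of 59 of genes called lower (6.78%) and in 1 of 65 of genes called higher (1.54%). Among promoters of the tested autosomal genes 3.55% hold them.

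Cd300e, an activating receptor of monocytes, had 12.8, 8.8, 4.75, 13.4 and 9.74 RPKM in XXF mice and 19.2, 28.2, 32.4 and 43.0 RPKM in XYF mice. All XXF mice were below all XYF mice. Cd300e differed by -1.56 (SE 0.32; adjusted p = 0.0267, limma, Benjamini-Hochberg), and the call ended without XYF F9 (-1.38). Ms4a6d, a membrane gene of monocytes and macrophages chosen after its values were seen, had 8.78, 5.81, 4.35, 8.01 and 7.19 RPKM in XXF mice and 16.1, 16.2, 22.2 and 22.4 RPKM in XYF mice. The XYF mice were all about 2 times the highest XXF mouse or more. Ms4a6d differed by -1.38 (SE 0.26; adjusted p = 0.0126, limma, Benjamini-Hochberg), and -1.31 and called without F9. Lilr4b, an inhibitory receptor of myeloid cells, had 9.45, 4.37, 6.93, 11.6 and 8.25 RPKM in XXF mice and 16.4, 19.6, 16 and 66.1 RPKM in XYF mice. F9 stood far above the other XYF mice. Lilr4b differed by -1.53 (SE 0.42; adjusted p = 0.0883, limma, Benjamini-Hochberg), and the call ended without XXF F1 (-1.59), XXF F2 (-1.35), XXF F3 (-1.49), XXF F4 (-1.66), XXF F5 (-1.55), XYF F6 (-1.71) or XYF F9 (-1.06), and also in the 9 mice alone, without a filter, with array weights (-1.16) and by limma-voom (-1.67).

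Fabp4, a fatty acid binding protein of macrophages and fat cells, had 6.71, 10.6, 12.4, 7.08 and 7.33 RPKM in XXF mice and 50.5, 20.1, 35.4 and 43.4 RPKM in XYF mice. F7 was lowest among the XYF mice and above every XXF mouse. Fabp4 differed by -1.93 (SE 0.32; adjusted p = 0.00506, limma, Benjamini-Hochberg), and -1.83 and called without F9. Of the 5 fat cell genes listed 2 were tested, Fabp4 and another that lay above 0 and was not called. Plin1 and Lep had no read in the 9 mice. Pparg, the nuclear receptor that switches on Fabp4 in both cell types, had 5.28, 4.63, 4.59, 5.77 and 5.46 RPKM in XXF mice and 11.1, 13.6, 12.5 and 11.6 RPKM in XYF mice. Both groups were tight and far apart. Pparg differed by -1.10 (SE 0.18; adjusted p = 0.00382, limma, Benjamini-Hochberg), and -1.12 and called without F9. Pltp, which transfers phospholipids between lipoproteins, had 13.4, 11.7, 9.9, 12.9 and 12.1 RPKM in XXF mice and 29.8, 23.0, 41.9 and 36.5 RPKM in XYF mice. Again the groups were apart. Pltp differed by -1.35 (SE 0.21; adjusted p = 0.00337, limma, Benjamini-Hochberg), and -1.29 and called without F9. Mmp14, a membrane-bound metalloproteinase, had 2.37, 1.32, 1.13, 1.44 and 1.57 RPKM in XXF mice and 5.78, 3.81, 4.37 and 3.94 RPKM in XYF mice. XXF F1 was nearest to the XYF mice and still well below them. Mmp14 differed by -1.10 (SE 0.16; adjusted p = 0.00207, limma, Benjamini-Hochberg), and -1.14 and called without F9. Pparg, Pltp and Mmp14 were chosen after their values were seen.

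Granule genes of immature neutrophils and their precursors rest more on XYF F9. Prtn3, for proteinase 3, had 6.22, 6.0, 10, 3.37 and 5.25 RPKM in XXF mice and 42.3, 21.7, 17.1 and 155 RPKM in XYF mice. All XYF mice were above the XXF mice, and F9 was several times above the other XYF mice. Prtn3 differed by -2.57 (SE 0.68; adjusted p = 0.0756, limma, Benjamini-Hochberg), and the call ended without XXF F1 (-2.59), XXF F2 (-2.58), XXF F4 (-2.41), XXF F5 (-2.54), XYF F6 (-2.54) or XYF F9 (-1.93), and also in the 9 mice alone, without a filter and by limma-voom (-2.78). Ctsg, for cathepsin G, had 4.12, 4.01, 3.76, 3.67 and 3.96 RPKM in XXF mice and 16.7, 12.1, 11.6 and 86.8 RPKM in XYF mice. The XXF mice were almost equal. Ctsg differed by -2.20 (SE 0.62; adjusted p = 0.0941, limma, Benjamini-Hochberg), and the call ended without XXF F1 (-2.21), XXF F2 (-2.21), XXF F3 (-2.19), XXF F4 (-2.18), XXF F5 (-2.20), XYF F6 (-2.31) or XYF F9 (-1.54), and also in the 9 mice alone, without a filter, with median ratio rescaling (-2.27), without immunoglobulin genes in the library sizes (-2.22) and by limma-voom (-2.47). Lipg, which is not a granule gene but an endothelial lipase, had 0.364, 0.0684, 0.0905, 0.197 and 0.0898 RPKM in XXF mice and 1.48, 0.814, 2.92 and 9.24 RPKM in XYF mice. It was close to absent in XXF mice and highest in F9. Only the XYF mice reached an RPKM of 0.5, so Lipg passed the filter through them alone. Lipg differed by -1.66 (SE 0.45; adjusted p = 0.0883, limma, Benjamini-Hochberg), and the call ended without XXF F1 (-1.72), XXF F2 (-1.63), XXF F3 (-1.64), XXF F4 (-1.68), XXF F5 (-1.64), XYF F6 (-1.85) or XYF F9 (-1.17), and also in the 9 mice alone and without a filter.

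Neutrophil genes had the largest median of the lists, -1.93 over 13 genes (-1.37 without F9), all 13 below 0, yet limma called 0 of them (9 lower and 0 higher at an unadjusted p under 0.05, 0 by limma-voom). S100a9, the most abundant, had 1849, 1679, 2311, 2209 and 1849 RPKM in XXF mice and 5527, 7161, 3428 and 23224 RPKM in XYF mice. The XXF mice lay together, and all XYF mice were above them with a wide spread. S100a9 differed by -1.93 (SE 0.67; adjusted p = 0.159, limma, Benjamini-Hochberg), -1.39 without F9 and, called, -2.31 without XYF F8. Elane, for neutrophil elastase, had 8.92, 10.3, 11.2, 5.56 and 7.82 RPKM in XXF mice and 43.0, 25.6, 21.2 and 160 RPKM in XYF mice. It shows the same picture as Prtn3. Elane differed by -2.25 (SE 0.65; adjusted p = 0.103, limma, Benjamini-Hochberg), just over the threshold, and it was called without XYF F7 (-2.50) or XYF F8 (-2.59), and also with array weights (-1.97). For 9 of the 13 genes no XYF mouse overlapped with an XXF mouse, where 2.05% of all autosomal genes were lower without overlap. The number of neutrophil genes called lower was 4 without XYF F7 and 7 without XYF F8.

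Cell cycle genes had a median of -0.86 (-0.60 without F9) with all 21 below 0, and limma called 0 (15 lower and 0 higher at an unadjusted p under 0.05, 0 by limma-voom). Their summed RPKM was 599, 533, 562, 482 and 438 in XXF mice and 1210, 459, 765 and 1287 in XYF mice. F6 and F9 were at about 2 times the XXF mice while F7 lay among them, and 18 of the 21 were called lower without XYF F7. All 18 erythroid genes lay below 0 as well, with a median of -0.67 (-0.37 without XYF F6, -1.24 without XYF F7 and -0.33 without F9), and limma called 0 (1 lower and 0 higher at an unadjusted p under 0.05, 0 by limma-voom). Their sum was 13389, 20191, 29490, 23293 and 16768 RPKM in XXF mice and 50192, 20285, 16595 and 37930 in XYF mice. F6 and F9 stood above, F7 and F8 among the XXF mice, so the high values are those of 2 mice. Hbb-bs, the most abundant erythroid gene, was not called, at -0.30. Its value was 0.40 with quantile normalization and -0.06 without XYF F6, and not called in either. Red blood cells had been lysed in the preparation, and what remains of them in each mouse was not tested for its part in the other results.

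Among 15 macrophage genes the median was -0.02 (0.02 under quantile normalization, and from -0.12 without XYF F8 to 0.24 without XYF F7), and Cd163 and Marco were called higher and Cd5l lower. Cd163, the hemoglobin scavenger receptor of red pulp macrophages, had 7.34, 5.84, 5.93, 6.17 and 6.43 RPKM in XXF mice and 2.47, 5.53, 2.18 and 2.43 RPKM in XYF mice. F7 was close to the XXF mice and the other XYF mice were low. Cd163 differed by 0.89 (SE 0.23; adjusted p = 0.0722, limma, Benjamini-Hochberg), and the call ended without XXF F1 (0.84), XXF F2 (0.91), XXF F4 (0.89), XXF F5 (0.88), XYF F6 (0.82) or XYF F9 (0.82), and also in the 9 mice alone. Marco, a scavenger receptor of marginal zone macrophages that binds bacteria, had 11.7, 15.7, 23.3, 16.3 and 13.3 RPKM in XXF mice and 4.96, 13.5, 7.07 and 5.27 RPKM in XYF mice. F7 lay among the XXF mice. Marco differed by 1.04 (SE 0.29; adjusted p = 0.0922, limma, Benjamini-Hochberg), and the call ended without XXF F1 (1.13), XXF F2 (1.03), XXF F3 (0.90), XXF F4 (1.02), XXF F5 (1.09), XYF F6 (0.89) or XYF F9 (0.91), and also in the 9 mice alone, without a filter, with median ratio rescaling (0.97), with quantile normalization (0.99), without immunoglobulin genes in the library sizes (1.02), with array weights (0.91) and by limma-voom (1.12). Cd5l, an inhibitor of macrophage death, had 36.4, 51.0, 51.2, 43.7 and 32.5 RPKM in XXF mice and 94.5, 150, 81.2 and 54.1 RPKM in XYF mice. F9 was only just above the XXF mice. Cd5l differed by -1.05 (SE 0.30; adjusted p = 0.0964, limma, Benjamini-Hochberg), and the call ended without XXF F1 (-1.0), XXF F2 (-1.12), XXF F3 (-1.12), XXF F4 (-1.07), XXF F5 (-0.96), XYF F6 (-1.02), XYF F7 (-0.81) or XYF F9 (-1.29), and also in the 9 mice alone, with a pseudocount of 0.1 (-1.07), without a filter, without immunoglobulin genes in the library sizes (-1.08) and without the trend. The number of macrophage genes called higher was 0 without XXF F1, XXF F2, XXF F4, XXF F5, XYF F6 or XYF F9, 1 without XXF F3 and 4 without XYF F7, and the number lower was 0 without any mouse but XYF F8. The macrophage genes thus moved in both directions, and the 8 monocyte genes were all below 0 with a median of -0.30 (-0.55 without XYF F8 and -0.11 without F9), 0 of them called by limma (1 lower and 0 higher at an unadjusted p under 0.05, 0 by limma-voom).

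**Figure D4:**
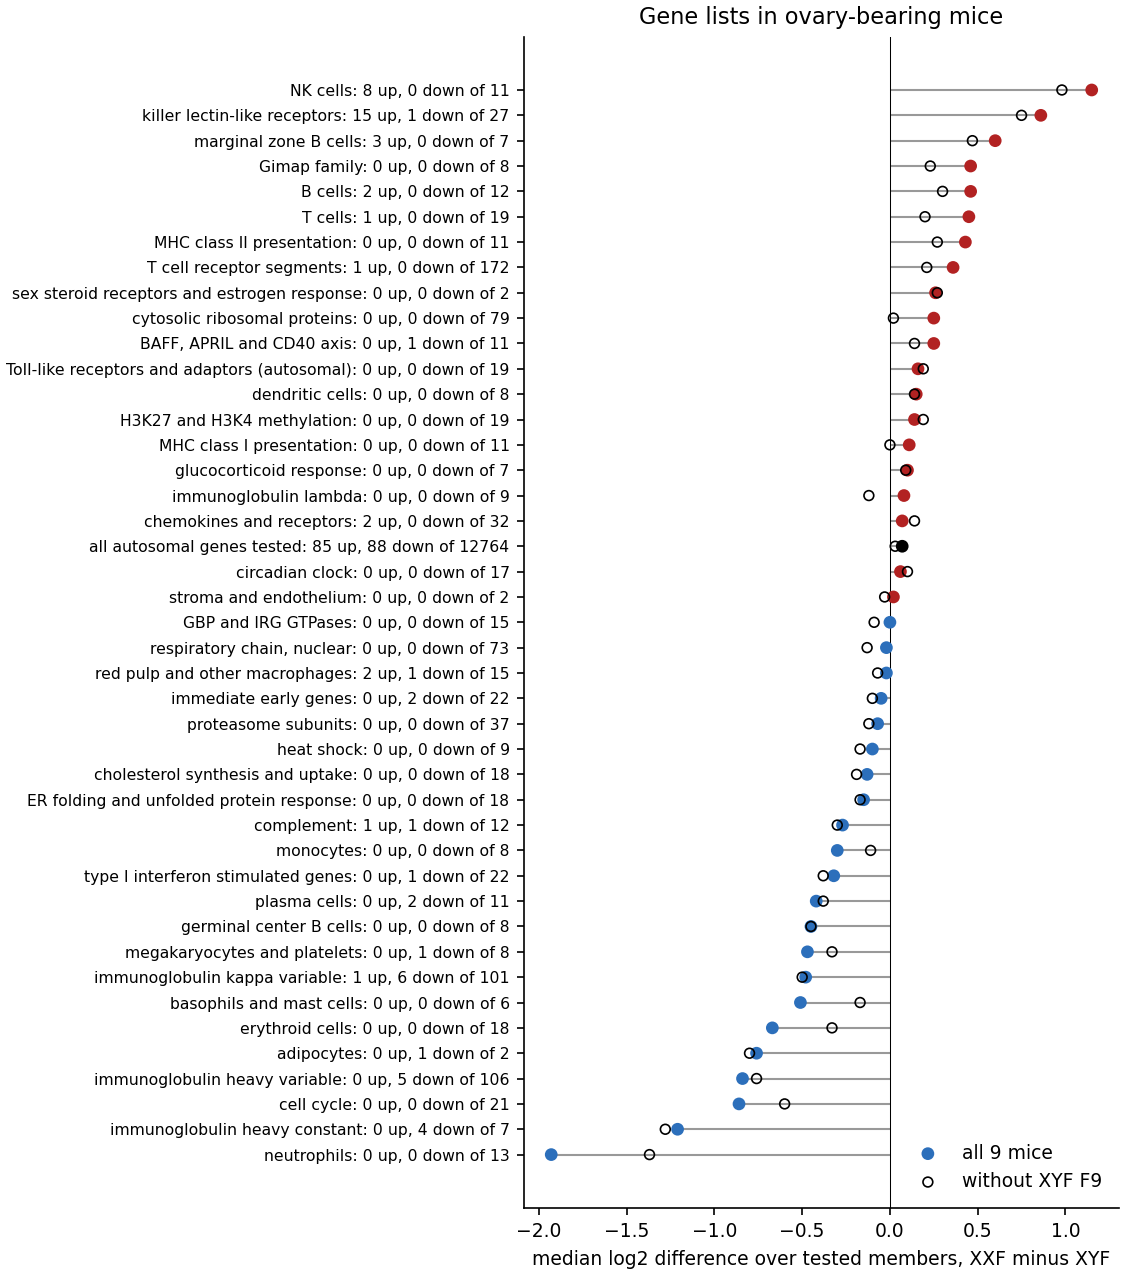
Median log2 difference over the tested members of each gene list, with all 9 mice (filled) and without XYF F9 (open). The numbers called higher and lower in XXF mice stand beside each list, and the black point is the median over all autosomal genes tested.

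The list medians show how far F9 reaches. Without it those of the NK cell, T cell, neutrophil, cell cycle and erythroid lists move toward 0, while those of immunoglobulin heavy constant genes, kappa segments and interferon-stimulated genes move slightly away from it. Of 22 interferon-stimulated genes 20 lay below 0, with a median of -0.32 (-0.38 without F9), and 1 was called, Oas1a, a sensor of double-stranded RNA. Oas1a had 10.4, 9.43, 10.2, 9.62 and 8.91 RPKM in XXF mice and 18.7, 16.8, 11.6 and 14.3 RPKM in XYF mice. The groups did not overlap. Oas1a differed by -0.59 (SE 0.16; adjusted p = 0.0789, limma, Benjamini-Hochberg), just past the threshold in size, and the call ended without XXF F1 (-0.61), XXF F2 (-0.58), XXF F4 (-0.59), XXF F5 (-0.56), XYF F6 (-0.49), XYF F7 (-0.54) or XYF F9 (-0.62), and also in the 9 mice alone and with array weights (-0.58). The number called was 0 without XXF F1, XXF F2, XXF F4, XXF F5, XYF F6 or XYF F9, 3 without XYF F7 and 5 without XYF F8. With median ratio rescaling 3 were called lower, and with quantile normalization 2. Oas1g, of the same family as Oas1a but outside this list, was chosen after its values were seen. It differed by -0.95 (adjusted p = 0.00506, limma, Benjamini-Hochberg) and was called with each of the 9 mice left out. Of 8 megakaryocyte genes 1 was called, Gp9, a chain of the platelet receptor for von Willebrand factor, with a median of -0.47 (-0.33 without F9). Gp9 had 5.24, 4.71, 4.82, 6.52 and 5.24 RPKM in XXF mice and 13.4, 8.89, 7.07 and 13.3 RPKM in XYF mice. F8 was nearest to the XXF mice. Gp9 differed by -0.85 (SE 0.19; adjusted p = 0.0396, limma, Benjamini-Hochberg), and the call ended without XXF F5 (-0.85), XYF F6 (-0.74) or XYF F9 (-0.74), and also in the 9 mice alone. The number of megakaryocyte genes called was 0 without XXF F5, XYF F6 or XYF F9, 2 without XYF F7 and 4 without XYF F8. The 11 genes of MHC class II presentation all lay above 0, with a median of 0.43 (0.27 without F9), and limma called 0 (6 higher and 0 lower at an unadjusted p under 0.05, 0 by limma-voom), but 3 without XYF F7 and 2 without XYF F8. The 79 cytosolic ribosomal protein genes had a median of 0.25, but 0.02 without F9 and 0.38 without XYF F7, and limma called 0 (0 at an unadjusted p under 0.05, 0 by limma-voom).

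The smallest p on the autosomes belongs to C4b, for complement component C4, which the classical pathway splits. C4b had 0.366, 0.18, 0.178, 0.288 and 0.231 RPKM in XXF mice and 1.56, 1.5, 2.12 and 1.28 RPKM in XYF mice. It is a low gene in all mice, with between 14 and 205 reads, and still apart by a wide gap. C4b differed by -1.06 (SE 0.12; adjusted p = 5.9e-05, limma, Benjamini-Hochberg), and -1.12 and called without F9. Of the 12 complement genes tested Cr2 was called higher and C4b lower, and the median was -0.27 (-0.30 without F9, but -0.06 without XYF F7). Among 22 immediate early genes, which the antigen receptors switch on, 2 were called lower, Nr4a1 and Klf4, and the median was -0.05 (from -0.15 without XYF F6 to 0.05 without XXF F1). That count was 1 without XXF F1, XXF F2, XXF F4, XXF F5, XYF F6 or XYF F9. Nr4a1, an orphan nuclear receptor that reports recent antigen receptor signals, had 27.4, 29.1, 27.6, 29.3 and 29.3 RPKM in XXF mice and 45, 45.4, 45.8 and 54.4 RPKM in XYF mice. The values within each group are nearly equal, and F9 is a little above the other XYF mice. Nr4a1 differed by -0.72 (SE 0.13; adjusted p = 0.0109, limma, Benjamini-Hochberg), and -0.65 and called without F9. Klf4, a transcription factor of monocytes and quiescent lymphocytes, had 7.28, 6.85, 7.95, 9.2 and 9.61 RPKM in XXF mice and 14.3, 13.7, 11.6 and 26.2 RPKM in XYF mice. F9 was highest and F8 nearest to the XXF mice. Klf4 differed by -0.87 (SE 0.22; adjusted p = 0.0672, limma, Benjamini-Hochberg), and the call ended without XXF F1 (-0.84), XXF F2 (-0.82), XXF F4 (-0.91), XXF F5 (-0.93), XYF F6 (-0.91) or XYF F9 (-0.63), and also in the 9 mice alone and with array weights (-0.62). Fasl, the ligand by which T and NK cells trigger death through Fas, was chosen after its values were seen and had 6.47, 6.69, 6.66, 5.91 and 7.67 RPKM in XXF mice and 2.94, 3.28, 3.42 and 2.23 RPKM in XYF mice. The XXF mice were at about 2 times the XYF mice. Fasl differed by 0.96 (SE 0.14; adjusted p = 0.00136, limma, Benjamini-Hochberg), and 0.86 and called without F9.

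The same comparison was made in mice with testes, and the 2 comparisons share no mouse. Both use the same spread of each gene, set from all mice of the fit, so their calls are not independent. Of the 85 genes called higher in XXF mice, 69 had a difference above 0 between XXM and XYM mice, 25 were called higher there too, and their median was 0.39, against 0.80 in mice with ovaries. Of the 88 called lower, 67 lay below 0 in mice with testes, 15 were called lower there too, and the median was -0.31, against -0.95. In mice with testes 0.987% of the genes were called higher and 1.76% lower. Over all autosomal genes 50.7% had the same sign in both, and the differences correlated with r = 0.18 across the 12764 genes, which share their libraries. In the other direction, of the genes called higher in XXM mice 85 (67.5% of them) lay above 0 in mice with ovaries, with medians of 0.71 and 0.15, and of 225 called lower 112 (49.8%) lay below 0, with medians of -0.83 and 0.01. Called genes are chosen for their size in the comparison that calls them, so a smaller median in the other does not by itself set the comparisons apart. Klre1 differed by 0.93 between XXM and XYM mice (adjusted p = 0.0458, limma, Benjamini-Hochberg) and was called. Fcgr4 differed by -1.57 (adjusted p = 0.048, limma, Benjamini-Hochberg) and was called. Igkv5-39 differed by -2.71 (adjusted p = 0.00336, limma, Benjamini-Hochberg) and was called. Ighg3, in contrast, differed by -0.07 and was not called there, but the difference between the 2 effects, -2.06 (SE 0.50), was not past the threshold (adjusted p = 0.128, limma, Benjamini-Hochberg). The T cell list had medians of 0.45 in mice with ovaries (0.20 without F9) and -0.40 in mice with testes. The erythroid list had -0.67 (-0.33 without F9) and 0.63. Further lists had opposite signs, among them megakaryocyte genes (-0.47 and 0.27) and T cell receptor segments (0.36 and -0.27). Lists with the same sign in both included the NK cells (1.15 and 0.55), heavy variable segments (-0.84 and -1.2) and MHC class II presentation (0.43 and 0.32).

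**Figure D5:**
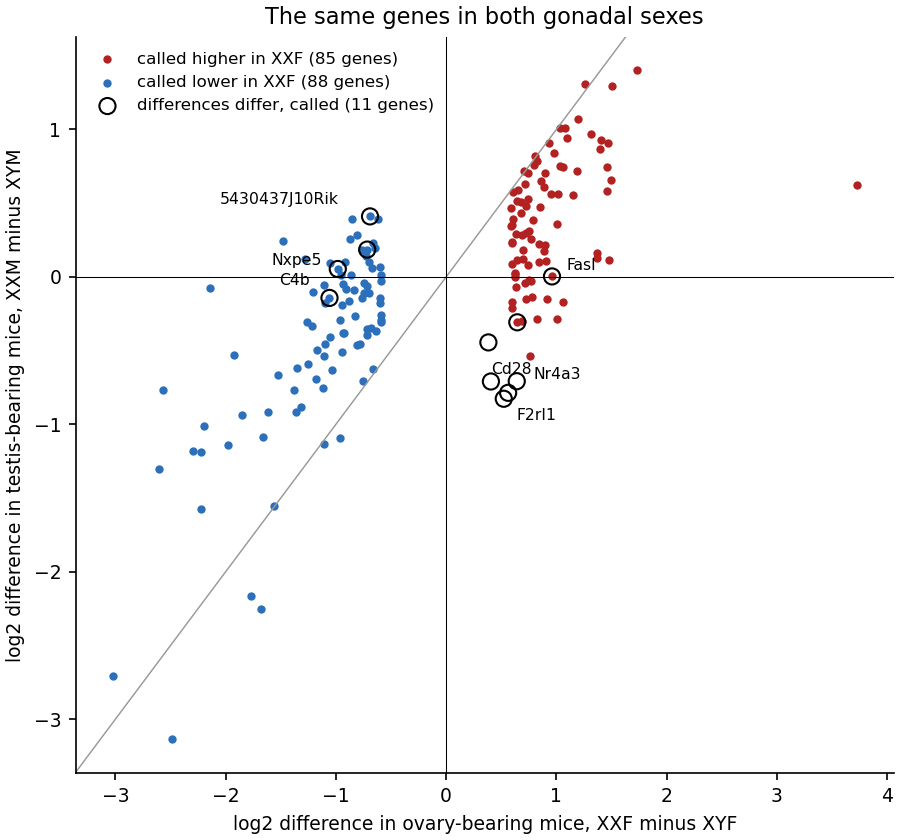
Log2 differences of the genes called in ovary-bearing mice, with the difference between XXM and XYM mice on the vertical axis and the line of equal differences. Circles mark the 11 genes whose 2 differences themselves differed, some of them not called in ovary-bearing mice.

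For 11 autosomal genes (0.0862%) the XX against XY effects in mice with ovaries and in mice with testes were themselves apart, 7 with a difference of the effects above 0 (0.0548%) and 4 below (0.0313%), and for 2683 at an unadjusted p under 0.05. By limma-voom the count was 5, and at an adjusted p under 0.05 limma called 0. It was 0 without XXF F1, XXF F2, XXF F5 or XYF F6, 3 without XXF F4, 7 without XYF F9, 732 without XYF F8 and 1089 without XXF F3, so the list of genes is not firm. No mouse with testes was left out. C4b is among them, with -1.06 in mice with ovaries and -0.14 in mice with testes, a difference of -0.92 (SE 0.16; adjusted p = 0.0518, limma, Benjamini-Hochberg). Among the ovary-bearing mice, C4b had passed the filter through the XYF mice alone. Nxpe5, of a family of neurexophilin-like genes, had 0.699, 0.588, 0.682, 0.622 and 0.613 RPKM in XXF mice and 2.34, 2.64, 2.09 and 1.93 RPKM in XYF mice. The groups were narrow and apart. Its difference was -0.98 in mice with ovaries and 0.05 in mice with testes, and the difference between them -1.04 (SE 0.18; adjusted p = 0.0522, limma, Benjamini-Hochberg). Cd28, the costimulatory receptor of T cells, had 20.8, 18.7, 18.1, 18.7 and 24.6 RPKM in XXF mice and 13.6, 13.7, 17.2 and 9.62 RPKM in XYF mice. There was no overlap, though F8 came near. Cd28 was not called in mice with ovaries (0.56), but was without XYF F8 (0.68), and was called lower in XXM mice (-0.79), a difference of 1.35 (SE 0.24; adjusted p = 0.0527, limma, Benjamini-Hochberg). F2rl1, a protease-activated receptor, was not called in mice with ovaries (0.52), but was without XYF F8 (0.62), and was called lower in XXM mice (-0.83), a difference of 1.35 (SE 0.23; adjusted p = 0.0518, limma, Benjamini-Hochberg). Nr4a3, which like Nr4a1 follows antigen receptor signals, was not called in mice with ovaries (0.64; adjusted p = 0.113, limma, Benjamini-Hochberg), and was called lower in XXM mice (-0.71), a difference of 1.35 (SE 0.26; adjusted p = 0.0839, limma, Benjamini-Hochberg). In mice with ovaries Nr4a3 was called without XXF F3 (0.72), XYF F7 (0.66) or XYF F8 (0.70), and also with a pseudocount of 0.1 (1.44), with quantile normalization (0.67) and with array weights (0.65). With a pseudocount of 0.5 (0.92) and by limma-voom (1.67) its value was larger and not called. Nr4a1 itself had -0.72 and 0.19, a difference of -0.90 (SE 0.18; adjusted p = 0.0839, limma, Benjamini-Hochberg).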

How the data were processed

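The deposited table holds log2 values of RPKM plus 1 for 19 mice, which the authors made with Subread on mm10 and featureCounts. Genes that had no read stand at 0.0001 in it. Whole reads were recovered from the table for 21317 genes, within 0.05 reads, which gave the depths and the input of limma-voom. The deposited log2 values were fitted with limma 3.58.1 in R 4.3.3 (means of 4 groups, moderated variances with a trend on expression), with Benjamini-Hochberg adjustment over 13644 genes. The script was tested on simulated data. Shares of reads were tested by exact two-sided permutation. Chromosomes came from RefSeq (GRCm38), in which 25275 listed genes were found. Python 3.11.15, numpy 2.4.6, pandas 2.3.3, matplotlib 3.10.9 and scipy 1.17.1 made tables and figures.

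Members and lists were chosen with earlier results of these data known. The naming rule took the 10 genes with the largest called difference in each direction whose groups do not overlap (segments and predicted genes apart), 3 segments and 3 predicted genes in each direction, from each of 44 lists the 4 members with the smallest p and the most abundant one, and in each direction the 3 genes whose effects were most apart between mice with ovaries and with testes. Not all of these are described. Alternatives tried: a pseudocount of 0.5 or 0.1, all genes or those with an RPKM of 1, median ratio rescaling, quantile normalization, library sizes without immunoglobulin genes, only the 9 ovary-bearing mice, no trend, array weights, limma-voom, an adjusted p under 0.05, no fold change threshold, adjustment over autosomal genes only, and each of the 9 ovary-bearing mice left out.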

Additional observations from a re-analysis of the deposited data

Results flagged for a closer look

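Of 96 groups of values, 3 had a highest or lowest mouse whose gap to the next one, divided by the range of its group, was above Dixon's 95% critical value for its number of mice, which by chance happens in about 1 in 20. The summed RPKM of the heat shock list was 445 in XYF F9, against 533 to 549 in the other XYF mice. The summed RPKM of the complement list was 1339 in XYF F7, against 633 to 740. The summed RPKM of the kappa variable list was 18944 in XYF F8, against 13405 to 13804. By the same measure the neutrophil sum of 60252 in XYF F9 (0.828) and the macrophage sum of 2325 in XYF F7 (0.746) were not past it.

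For 11 genes limma's test of the difference between the effects, XX against XY in mice with ovaries and in mice with testes, passed the threshold. The effect in mice with ovaries minus that in mice with testes was 1.35 for F2rl1, 1.35 for Cd28 and 1.35 for Nr4a3. It was 1.12 for Ubash3a, an inhibitor of T cell receptor signalling, 0.96 for Fasl, 0.95 for Znrf2 and 0.83 for Esyt2. It was below 0 for 4 genes, at -0.90 for Nr4a1, -0.92 for C4b, -1.04 for Nxpe5 and -1.10 for 5430437J10Rik. Ubash3a, Znrf2 and Esyt2 were chosen after their values were seen.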

How the results depend on the processing

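Genes called higher numbered 31 in the 9 ovary-bearing mice alone, 47 at an adjusted p under 0.05, 204 without a fold change threshold, and from 21 (without XYF F9) to 265 (without XYF F7) with a mouse left out. Genes called lower numbered 49 in the 9 mice alone, 149 with array weights, 42 at an adjusted p under 0.05, and from 22 (without XYF F9) to 531 (without XYF F7) with a mouse left out. The genes whose effects in mice with ovaries and with testes were apart numbered 6 with a pseudocount of 0.1, 6 without a filter, 1730 with array weights, 5 by limma-voom, 0 at an adjusted p under 0.05, and from 0 (without XXF F1) to 1089 (without XXF F3) with a mouse left out, always an ovary-bearing mouse. No value changed its sign past the threshold. Of 1079 values of 54 called named genes 894 stayed the same and 185 lost the call, most of them with a mouse left out (28 without XYF F9), and 21 in the 9 mice alone. The share of reads on immunoglobulin genes had an adjusted p under 0.05 with all 9 mice (exact permutation). With a mouse left out, too few mice remained for an adjusted p under 0.05 to be reached. The groups still did not overlap each time, and the difference was from -1.75 (without XYF F7) to -1.35 (without XYF F8) percentage points.

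The comparison has 5 and 4 mice from a single experiment, and a single XYF mouse, F9, stands apart. Groups stand together in the order of the libraries. RNA of whole spleen cells mixes cell types. Values are on a log2 scale with 1 added, which shrinks differences of weak genes. Reads of near-identical genes cannot be placed with certainty. No other data set was used to test any gene.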
